A study of Mus musculus with 11 samples.

Results

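Gene expression was compared between LSKs of p53-/- and p53+/+ mice. LSKs are bone marrow cells without lineage markers that carry Sca1 and Kit, a gate that holds hematopoietic stem cells (HSCs) and multipotent progenitors. The comparison rested on 6 RNA-seq libraries, 3 from p53-/- and 3 from p53+/+ mice, out of 11 samples in the series. All 12647 genes of the count table were considered, and 12625 of them passed the filter on low counts and were tested. A further 3 LSK libraries came from p53R248W/+ mice, heterozygous for a knock-in of the mutant p53R248W. They entered the low-count filter, the scaling, and the fit, where they added to the estimate of the spread between libraries. Their levels are given for some genes. The series also holds 2 H3K27me3 ChIP-seq samples, which were not analysed here.

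The mice were young adults and tumor free. The methods give a C57BL6 background for the p53+/+ and p53R248W/+ mice and none for the p53-/- mice. The p53+/+ mice carry the HUPKI allele, in which most of the p53 coding sequence is human and is expressed from the mouse Trp53 promoter, so the control is a humanized wild-type p53 and not the mouse gene. The p53R248W/+ mice carry their mutation in the same HUPKI allele. How the p53-/- allele was made is not given in the sources used here. The labels give neither the sex of the mice nor whether cells of several mice were pooled. Nothing says that the 3 libraries of a genotype came from separate mice, so p-values measure only the spread between these libraries, which may be technical.

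p53 is a transcription factor that is stabilized by DNA damage and other stress and activates genes of cell cycle arrest, apoptosis, DNA repair, and metabolism. In the bone marrow it is known for keeping HSCs quiescent and for removing damaged stem and progenitor cells. One of its best known targets, Cdkn1a, encodes the CDK inhibitor p21, and p21 in turn is known to lower the transcription of cell cycle genes through the DREAM complex, which binds the CHR motif in their promoters.

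Totals of the 6 libraries ran from 18021375 to 22503595 reads assigned to genes, and p53R248W/+ replicate 1 had the most of all, 29750702. Values are given as CPM (read counts scaled to library size by TMM), in the order of the replicate numbers. Kit had CPM 629.7, 861 and 507 in p53+/+ and 807, 493 and 805 in p53-/- libraries, Ly6a, which encodes Sca1, had 262, 219 and 149 and 276, 444 and 271, so both genes that define the gate were expressed in every library. Of the lineage markers, Cd8a reached at most 0.598 CPM and Cd4 10.5 CPM in the 6 libraries, whereas Itgam, which encodes CD11b, ranged from 16.5 to 115 CPM. Among the 6 libraries compared, the replicate 2 library of p53+/+ stood apart. It held transcripts of the Y chromosome, with 38.1 CPM of Eif2s3y and 33.6 CPM of Ddx3y, together with 65.0 CPM of Xist, whereas the 3 p53-/- libraries held 0 reads of either Y-linked gene and the other p53+/+ libraries at most 2. It also held transcripts of mature neutrophils, with 799 CPM of S100a8 against at most 36.0 CPM in the other 5 libraries. Results that rest on neutrophil genes are therefore given with and without this library. Of the p53R248W/+ libraries, replicates 2 and 3 also held Y-linked transcripts, with 17.96 and 52.4 CPM of Eif2s3y. The granulocyte and monocyte genes described below summed to 10150 CPM in p53+/+ replicate 2 and 11450 CPM in p53R248W/+ replicate 2.

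Trp53 itself had CPM 125, 207 and 376 in p53+/+ and 129, 127 and 112 in p53-/- libraries. The 3 p53-/- libraries lay close together, and the p53+/+ library with the lowest value lay within their range. The log2 fold change was -0.94 ± 0.31, adjusted p = 0.0953, short of the threshold. Among the alternatives run it passed the threshold only in DESeq2 (adjusted p = 0.0259) and when p53+/+ replicate 1 was left out of the edgeR fit (-1.25, with an adjusted p of 0.0248). When p53+/+ replicate 3 was left out it was -0.44, with an adjusted p of 0.37. A count over the whole gene does not show which exons the reads came from, and the HUPKI allele holds human sequence. The Trp53 count was therefore no check of the genotype, and directions below are between libraries as labelled.

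A total of 442 genes passed an adjusted p-value of 0.05 (edgeR quasi-likelihood test, Benjamini-Hochberg over 12625 genes), 3.50% of those tested. In p53-/- LSKs 158 genes (1.25%) rose and 284 (2.25%) fell. The falls were larger, with 233 genes past 2-fold and 50 past 4-fold against 72 and 10 among the rises. The median log2 fold change was -1.32 among the genes that fell, 0.96 among those that rose, and -0.00125 over all genes tested. In all 442 the 3 p53-/- libraries lay outside the range of the 3 p53+/+ libraries, as they did in 31.4% of all genes tested. The number of calls depended on single libraries. It was 46 without p53+/+ replicate 2, 37 without p53+/+ replicate 3, 53 without p53-/- replicate 1, 39 without p53-/- replicate 2, 103 without p53-/- replicate 3, and 499 without p53+/+ replicate 1. All 442 genes kept their direction in each of these fits. Many calls named below passed in only 1 of these 6 fits, the one without p53+/+ replicate 1, and are said to rest on the other 5 libraries. Brackets below give the log2 fold change of p53-/- against p53+/+ with its standard error, and the adjusted p-value of the edgeR test. Some lists below also carry the number of genes at an unadjusted edgeR p-value below 0.05 and the number DESeq2 called. Over all genes tested these were 2950 of 12625 and 1552 of 12355, and the list counts are to be read against them.

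**Figure D1:**
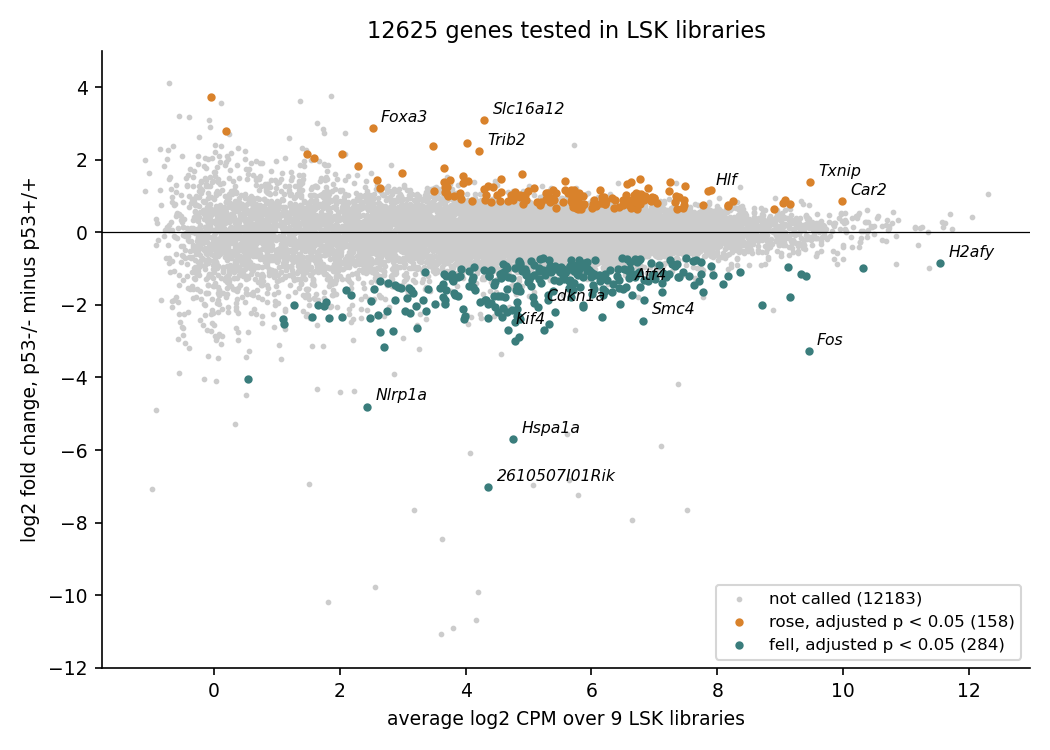
Log2 fold change of p53-/- against p53+/+ LSKs (y axis) by average log2 CPM over the 9 LSK libraries (x axis) for 12625 genes, each a point, with 158 genes that rose in orange, 284 that fell in teal, and the rest in grey. Falls reached further than rises, with 2610507I01Rik at -7.01 and Slc16a12 at 3.08, and the grey points below -6 include genes of the Y chromosome and of mature neutrophils with reads mainly in p53+/+ replicate 2, such as Eif2s3y and Ngp.

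A set of 26 genes stayed past the threshold whichever of the 6 libraries was left out, 25 of them lower and 1 higher in p53-/- LSKs. These were taken out after their values had been seen. They included 8 genes of mitosis and chromosome condensation (Anln, Cenpf, Dlgap5, Kif4, Kif15, Kif20b, Smc2, and Smc4) and the p53 targets Cdkn1a and 9030617O03Rik. Others that fell were 2610507I01Rik, Atf4, Bex6, Bzrap1, Cmah, Cnn3, Drc7, Elovl6, Ift74, Klrb1f, Neat1, Tfrc, Tmem119, and Tpm4, and Trib2 rose.

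Passing in each of these fits favors genes with little spread, and those outside the groups described below are given here. Tpm4, a tropomyosin of the actin cytoskeleton, had CPM 131, 131 and 132 in p53+/+ and 45.4, 34.3 and 38.5 in p53-/- libraries (-1.74 ± 0.16, adjusted p = 8.09e-04). Cnn3, an actin-binding calponin, fell from 164, 123 and 135 to 50.4, 43.7 and 54.99 CPM (-1.50 ± 0.17, adjusted p = 0.00230), and Bex6 from 104, 96.9 and 112 to 38.6, 29.5 and 40.2 CPM (-1.53 ± 0.17, adjusted p = 0.00203). Elovl6, an enzyme of fatty acid elongation, had CPM 61.3, 54.99 and 68.8 in p53+/+ and 21.5, 25.8 and 25.8 in p53-/- libraries (-1.34 ± 0.18, adjusted p = 0.00671). Neat1, the long noncoding RNA that builds paraspeckles, had CPM 105, 94.8 and 81.3 in p53+/+ and 19.5, 40.2 and 30.7 in p53-/- libraries (-1.64 ± 0.25, adjusted p = 0.0118), and Cmah, which makes a form of sialic acid, 35.8, 26.7 and 44.1 and 7.51, 6.78 and 8.79 CPM (-2.21 ± 0.28, adjusted p = 0.00426). Klrb1f (-1.88 ± 0.27, adjusted p = 0.00890) has close paralogs among which reads could be split. The p53R248W/+ libraries had 129, 129.6 and 127 CPM of Tpm4 and 52.9, 67.98 and 70.5 CPM of Elovl6.

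**Figure D2:**
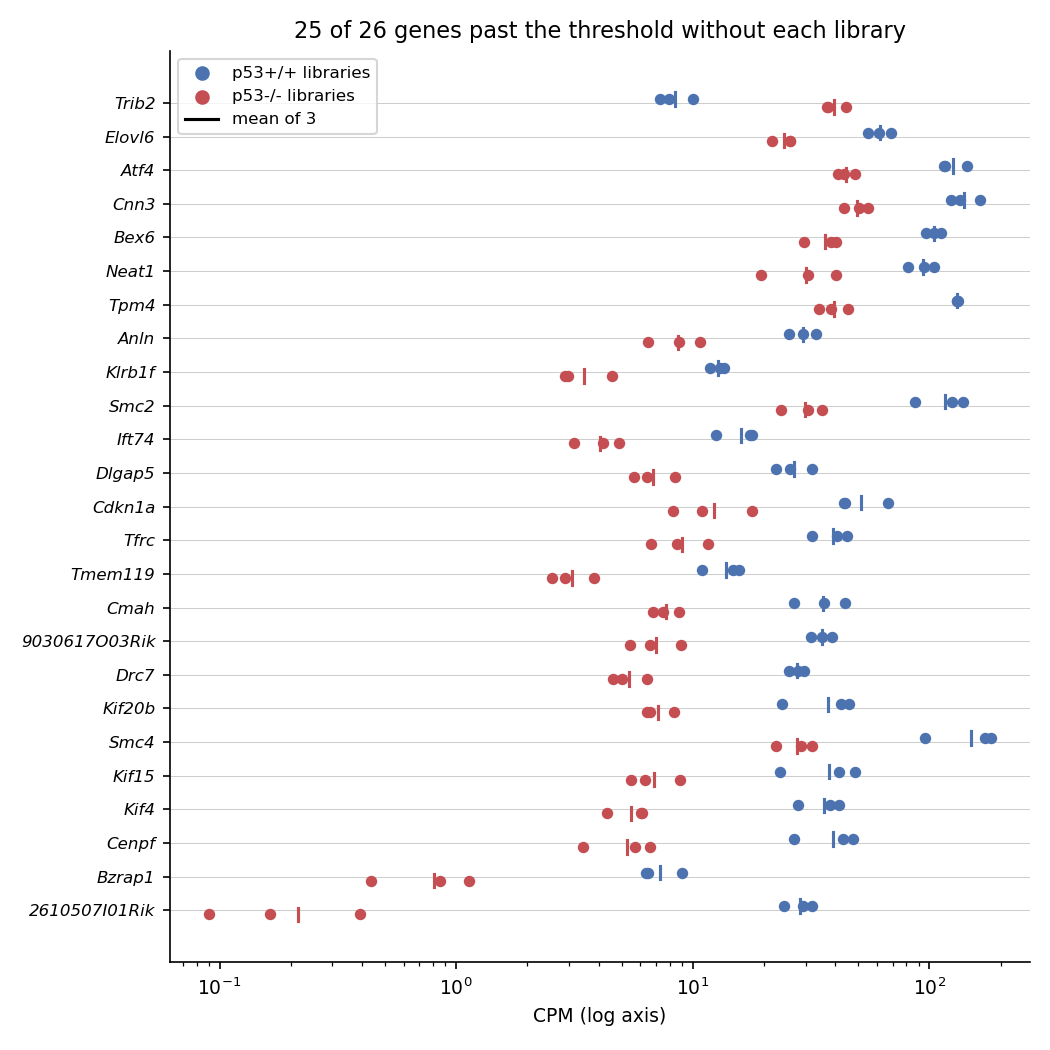
CPM on a log axis (x axis) of 25 of the 26 genes (y axis) that stayed past the threshold when any single library was left out, with p53+/+ libraries in blue, p53-/- libraries in red, and a short bar at each mean of 3. The groups do not overlap in any row, and the gap is widest for 2610507I01Rik, from at least 24.3 to at most 0.393 CPM.

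The widest gap was in 2610507I01Rik, a long noncoding RNA gene at chr11:59197793-59202431 (GRCm38.p6) without a described function. It had CPM 24.3, 31.8 and 29.1 in p53+/+ and 0.163, 0.0904 and 0.393 in p53-/- libraries, which is 483, 639, and 522 reads against 3, 2, and 8. The log2 fold change was -7.01 ± 0.38, adjusted p = 5.65e-06. The p53R248W/+ libraries had 30.4, 34.6 and 32.8 CPM. Of the 36 other genes tested within 1 Mb of it, 4 were called. The histone gene Hist3h2ba (-2.53) and the pseudogene Hist3h2bb-ps (-4.05), both at most 3.22 CPM in the 6 libraries, also fell, while Trim58 (1.78) and the interferon-inducible GTPase gene Igtp (0.95) rose. Its direct neighbours Guk1 (-0.06, adjusted p = 0.904) and Mrpl55 (-0.39, adjusted p = 0.307) were not called. Trp53 lies on the same chromosome. Of 266 genes within 10 Mb of its start 4 (1.5%) were called, on the rest of chromosome 11 33 of 792 (4.17%), and on other chromosomes 405 of 11567 (3.50%). That window leaves out 2610507I01Rik and its 4 called neighbours, and it holds Nlrp1a, which fell and is described below. Whether sequence around Trp53 differed between the mice beyond the p53 alleles was not tested.

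Cdkn1a was the p53 target with the clearest fall among genes of arrest and feedback. Its level was CPM 67.01, 44.03 and 43.6 in p53+/+ and 17.8, 8.27 and 10.9 in p53-/- libraries, so that every p53-/- library lay below every p53+/+ library. Means were 51.5 ± 13.4 and 12.3 ± 4.91 CPM (SD, n = 3 each), and the log2 fold change was -2.07 ± 0.30, adjusted p = 0.00914 (edgeR). The distal of its promoters in RefSeq (GRCm38.p6, chr17:29090879-29090978, plus strand) is shown because it was the only promoter of a called gene with a full p53 consensus site within 250 bases before to 50 bases after the start. Capitals mark the 2 decamers that matched the consensus letters, 73 to 64 and 51 to 42 bases before the start. A spacer of up to 13 bases between them was allowed. The 10 bases right after the downstream decamer, tgacatgttc, miss the consensus only at their first letter and are not marked. Which decamers p53 binds was not tested.
Cdkn1a: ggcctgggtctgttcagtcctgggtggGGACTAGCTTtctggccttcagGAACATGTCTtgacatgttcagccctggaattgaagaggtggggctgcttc

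Other p53 targets were called in both directions. Of 22 arrest and feedback genes tested, 2 fell and 1 rose, 13.6% against 3.50% of all genes, with a median log2 fold change of -0.15. Pidd1, which encodes a p53-induced death domain protein, fell (CPM 28.3, 40.6 and 49.1 in p53+/+ and 13.1, 9.804 and 16.4 in p53-/- libraries, log2 fold change -1.59 ± 0.36, adjusted p = 0.0377). Sesn1, an inhibitor of mTORC1 signaling, went the other way and rose from 256, 238 and 195 to 417, 336 and 410.0 CPM (0.76 ± 0.16, adjusted p = 0.0332). Mdm2, the ubiquitin ligase that degrades p53, had CPM 74.3, 80.2 and 62.2 in p53+/+ and 86.4, 74.7 and 72.9 in p53-/- libraries and did not differ beyond its spread (0.11 ± 0.16, adjusted p = 0.717). Ccng1 (0.29) and Gadd45a (0.03) were not called either. Phlda3, an inhibitor of AKT, had lower values in all p53-/- libraries without passing the threshold (-1.06 ± 0.28, adjusted p = 0.0571). Cdkn1a was the call that passed in all 6 fits without a library, and Pidd1 and Sesn1 rested on the 5 libraries other than p53+/+ replicate 1.

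Among 14 apoptosis targets 0 genes were called by edgeR, 2 were lower and 2 higher at an unadjusted p-value below 0.05, and DESeq2 called 3. Bbc3, which encodes PUMA, had CPM 19.1, 18.3 and 11.4 in p53+/+ and 12.5, 16.4 and 14.1 in p53-/- libraries (-0.19 ± 0.25, adjusted p = 0.694). Pmaip1, which encodes NOXA, had a log2 fold change of -0.14 (adjusted p = 0.875). Bax (-0.59 ± 0.19, adjusted p = 0.0979) and Bid (-0.59 ± 0.15, adjusted p = 0.0524), both of which act on the mitochondrial membrane, had lower values in all 3 p53-/- libraries than in any p53+/+ library but missed the threshold. Over the 14 genes, 2 lay below and 3 above all p53+/+ libraries in every p53-/- library, against 16.0% and 15.4% of all genes.

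Of 19 targets in DNA repair and metabolism 2 fell and 1 rose (15.8% called, median 0.24). The fall of 9030617O03Rik was among those with the smallest p-values of all genes. This gene, now named Dglucy, encodes a D-glutamate cyclase. It had CPM 35.02, 38.6 and 31.7 in p53+/+ and 5.44, 6.596 and 8.89 in p53-/- libraries and a log2 fold change of -2.33 ± 0.23, adjusted p = 0.00150. Over the fits without a library the log2 fold change went from -2.17 to -2.54. Ercc5, an endonuclease of nucleotide excision repair, fell (-1.15 ± 0.27, adjusted p = 0.0400), and Ak1, a cytosolic adenylate kinase, rose (1.07 ± 0.25, adjusted p = 0.0442). Both were lost without any library other than p53+/+ replicate 1, and Ercc5 also without that one. Both targets described in HSCs were not called in the main fit. DESeq2, the strict filter, the fit of the 6 libraries alone, and the replicate block each called 1 of the 2 higher. So did the fit without p53+/+ replicate 1. The paper names Necdin among genes that p53 activates in HSCs, whereas its log2 fold change here was above 0. Ndn, which encodes necdin, had CPM 16.2, 12.2 and 11.3 in p53+/+ and 22.5, 37.1 and 22.8 in p53-/- libraries (1.05 ± 0.26, adjusted p = 0.0506), and Gfi1 had 41.5, 60.3 and 38.03 and 73.99, 75.4 and 42.6 (0.46 ± 0.25, adjusted p = 0.3005).

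Genes of mitosis, the spindle, and the kinetochore held more calls than any other list, all of them falls. Of 85 genes tested 20 fell, 23.5% against 3.50% of all genes, with a median log2 fold change of -0.83 against -0.00125 over all genes. In 83 of them the log2 fold change was below 0, and in 54 all p53-/- libraries lay below all p53+/+ libraries, against 16.0% of all genes. In bulk RNA, fewer cells that express a gene and less of its RNA per cell cannot be told apart. The summed level of the list was 9290 to 10700 CPM in p53+/+ libraries and 8150, 6610, and 4940 CPM in p53-/- libraries, so that p53-/- replicate 1 lay nearest to the controls. Without p53-/- replicate 1 the list's median was -1.11 with 21 falls. It was -0.61 with 9 falls without p53-/- replicate 3, and the falls numbered 8 without p53-/- replicate 2, 10 without p53+/+ replicate 2, and 8 without p53+/+ replicate 3.

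The members with the largest falls were motors and structural proteins of dividing chromosomes. Cenpf, a protein of the outer kinetochore, had CPM 26.8, 42.98 and 47.4 in p53+/+ and 5.71, 6.596 and 3.44 in p53-/- libraries (-2.89 ± 0.40, adjusted p = 0.00671). Kif4, a kinesin of the chromosome arms and the midzone, had CPM 27.9, 41.3 and 37.9 in p53+/+ and 6.04, 4.34 and 6.09 in p53-/- libraries (-2.70 ± 0.29, adjusted p = 0.00203). Kif15, a spindle kinesin, had CPM 23.4, 48.5 and 41.5 in p53+/+ and 8.81, 6.28 and 5.4995 in p53-/- libraries (-2.46 ± 0.32, adjusted p = 0.00428). In these 3 genes the lowest p53+/+ library was replicate 1, and it still lay above the highest p53-/- library. Smc4 and Smc2, which form the core of condensin, fell from 95.9, 172 and 182 to 28.6, 31.8 and 22.6 CPM (-2.44 ± 0.30, adjusted p = 0.00330) and from 86.7, 124 and 139 to 30.6, 35.2 and 23.7 CPM (-1.96 ± 0.23, adjusted p = 0.00312). The proliferation antigen Mki67 fell as well (CPM 68.3, 108 and 121 in p53+/+ and 17.1, 19.7 and 21.998 in p53-/- libraries, -2.34 ± 0.46, adjusted p = 0.0255), and so did topoisomerase Top2a (210.2, 323 and 289 to 133, 73.1 and 58.4 CPM, -1.64 ± 0.31, adjusted p = 0.0234). Kif20b, Dlgap5, Anln, Cenpe, Casc5 (now Knl1), Kif11, and Kif20a had log2 fold changes between -2.38 and -1.62, all past the threshold.

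Upstream sequences of 4 members that fell are shown for the motifs of cell cycle promoters, with the CHR (TTTGAA) and the CCAAT box in capitals on either strand and, in Kif15, the CRE core TGACGT. They end at the base before the RefSeq start (GRCm38.p6). Kif11 lies at chr19:37376322-37376381 (plus strand), Kif15 at chr9:122950971-122951080 (plus), Mki67 at chr7:135716380-135716579 (minus), and Top2a at chr11:99024190-99024429 (minus).
Kif11: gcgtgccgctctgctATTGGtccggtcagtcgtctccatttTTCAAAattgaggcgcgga
Kif15: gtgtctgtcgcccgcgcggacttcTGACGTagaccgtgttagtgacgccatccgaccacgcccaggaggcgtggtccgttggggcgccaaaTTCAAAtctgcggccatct
Mki67: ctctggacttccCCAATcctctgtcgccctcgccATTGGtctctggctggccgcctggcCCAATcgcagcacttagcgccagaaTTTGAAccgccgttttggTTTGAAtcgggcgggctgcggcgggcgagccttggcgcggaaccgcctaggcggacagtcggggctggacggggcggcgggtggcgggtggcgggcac
Top2a: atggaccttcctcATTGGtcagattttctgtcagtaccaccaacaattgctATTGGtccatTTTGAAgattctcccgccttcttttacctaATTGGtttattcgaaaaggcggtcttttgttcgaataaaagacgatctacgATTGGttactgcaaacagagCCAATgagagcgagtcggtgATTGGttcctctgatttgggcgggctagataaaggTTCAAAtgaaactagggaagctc

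The CHR stood 19 to 14 bases before the start in both Kif11 and Kif15. Over the whole list, 71 of 85 genes had 77 RefSeq promoter windows of 250 bases before to 50 after a start, and 62.3% of these held a CHR and 72.7% a CCAAT box. The shares over 12886 windows of all genes tested were 12.4% and 37.7%. Among windows of genes that fell 22.2% held a CHR, and among those of genes that rose 9.26%. A match is a description of the letters only. Cdkn1a and the mitosis genes both fell, although p21 is described above as lowering the transcription of cell cycle genes. A link between these falls was not tested. The paper describes lower quiescence of LSKs without p53, with Ki67 protein staining, which was not compared with the RNA levels here.

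The other cell cycle lists had fewer calls. Of 50 DNA replication genes 4 fell (median -0.30, 47 below 0), 8.0% against the 2.25% of all genes that fell. They were Clspn, a checkpoint adaptor at the fork (-1.77 ± 0.29, adjusted p = 0.0145), the clamp loader Rfc1 (-1.58 ± 0.39, adjusted p = 0.0483), the ligase Lig1 (-1.10 ± 0.22, adjusted p = 0.0274), and the fork protein Tipin (-0.77 ± 0.19, adjusted p = 0.0452). The count was 0 without p53+/+ replicate 2, p53+/+ replicate 3, p53-/- replicate 1, or p53-/- replicate 2, 1 without p53-/- replicate 3, and 7 without p53+/+ replicate 1 (edgeR), and the list's median stayed below 0 in each fit. Of 57 genes of DNA repair and checkpoints 4 fell (7.02%), among them Brca2 from 25.9, 48.4 and 48.9 to 6.64, 8.04 and 10.2 CPM (-2.31 ± 0.36, adjusted p = 0.0129) and Rad50, a subunit of the MRN complex (-1.69 ± 0.34, adjusted p = 0.0266), and the count was 10 without p53+/+ replicate 1 and at most 2 when another library was omitted. Of 48 replication-dependent histone genes 4 fell (8.33%, median -0.74), namely Hist1h2bg, Hist1h2bm, Hist1h2bp, and Hist3h2ba. All 4 were at low levels and have near-identical copies among which reads could be split, and 1 gene fell without p53+/+ replicate 1 and 0 without any other library. The median of the histone genes lay further below 0 than that of the mitosis genes when the level of Y-linked genes was a covariate (-0.89 against -0.78), without p53-/- replicate 2 (-0.86 against -0.81), and in the fit with the exon and GC trend removed that is described below (-0.84 against -0.73). Of 22 G1 cyclins, CDKs, inhibitors, and pocket proteins 0 were called by edgeR, 6 were lower at an unadjusted p-value below 0.05, and DESeq2 called 1 (median -0.11). Cdk6 (-0.80 ± 0.23, adjusted p = 0.0690) and E2f1 (-0.54 ± 0.20, adjusted p = 0.128) had the smallest p-values.

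**Figure D3:**
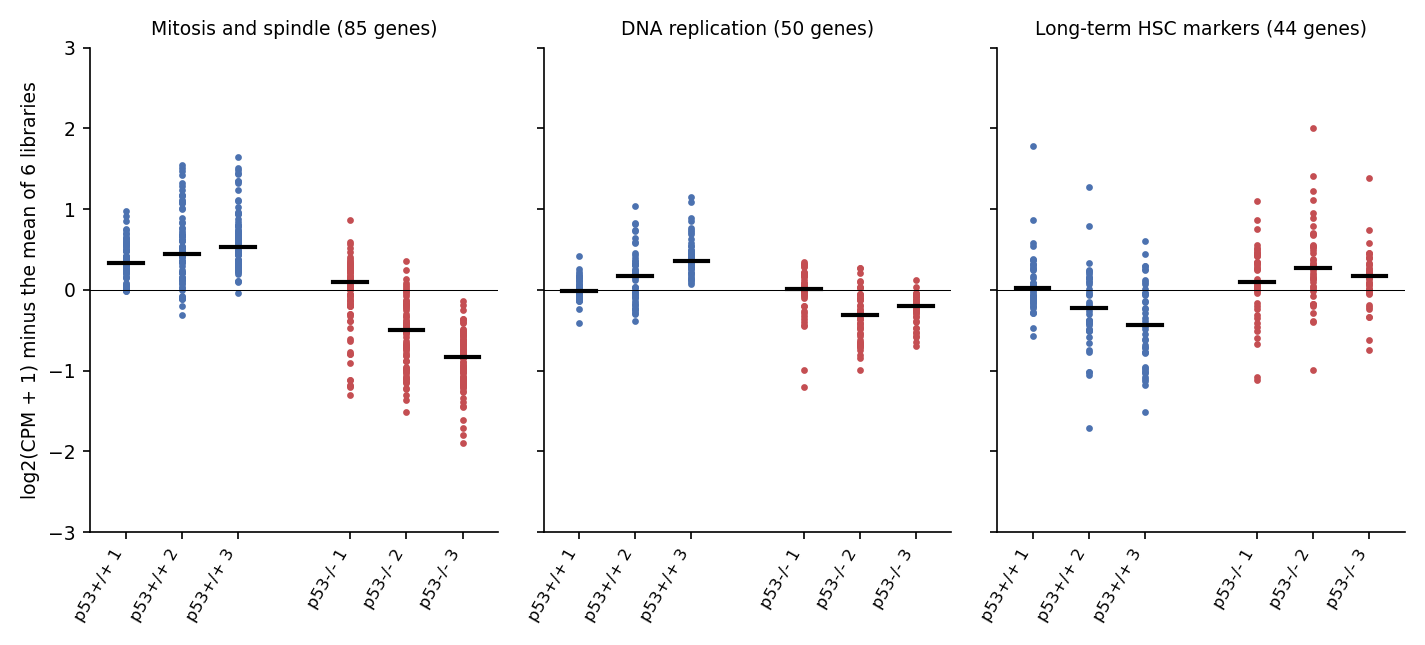
Level of each list member in each library as log2(CPM + 1) minus its mean over the 6 libraries (y axis), for 85 mitosis and spindle genes, 50 DNA replication genes, and 44 long-term HSC markers, with p53+/+ libraries in blue, p53-/- libraries in red, and a black bar at each library's median. The mitosis bars of all 3 p53+/+ libraries lie above those of all 3 p53-/- libraries, of which replicate 1 lies highest, and the HSC marker bars are lowest in p53+/+ replicate 3.

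Called genes also differed in the number of exons. The median was 14 exons for genes that fell, 5 for genes that rose, and 9 over the 12314 genes tested with an exon number. Of 845 genes with more than 25 exons 5.80% fell and 0.118% rose, whereas of 385 genes with 1 exon 2.86% fell and 3.38% rose. The trend also differed between libraries of one genotype. Genes with more than 25 exons deviated from their 6-library mean by a median of 0.42 in p53+/+ replicate 2 but -0.02 in p53+/+ replicate 1, and by -0.38 in p53-/- replicate 2 but 0.04 in p53-/- replicate 3. Among the mitosis genes, 24 with at most 8 exons had a median log2 fold change of -0.47 with 1 call, and 60 with more had -0.94 with 18 calls. Of all genes tested with an exon number, those with at most 8 exons had a median of 0.119, and 1.36% fell. Those with more had a median of -0.128, and 3.11% fell. When the trend on exon number and GC content was removed from each library, 798 genes were called, 348 higher and 450 lower, 417 of the 442 among them, and 30 mitosis genes fell with a median of -0.73. 

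**Figure D4:**
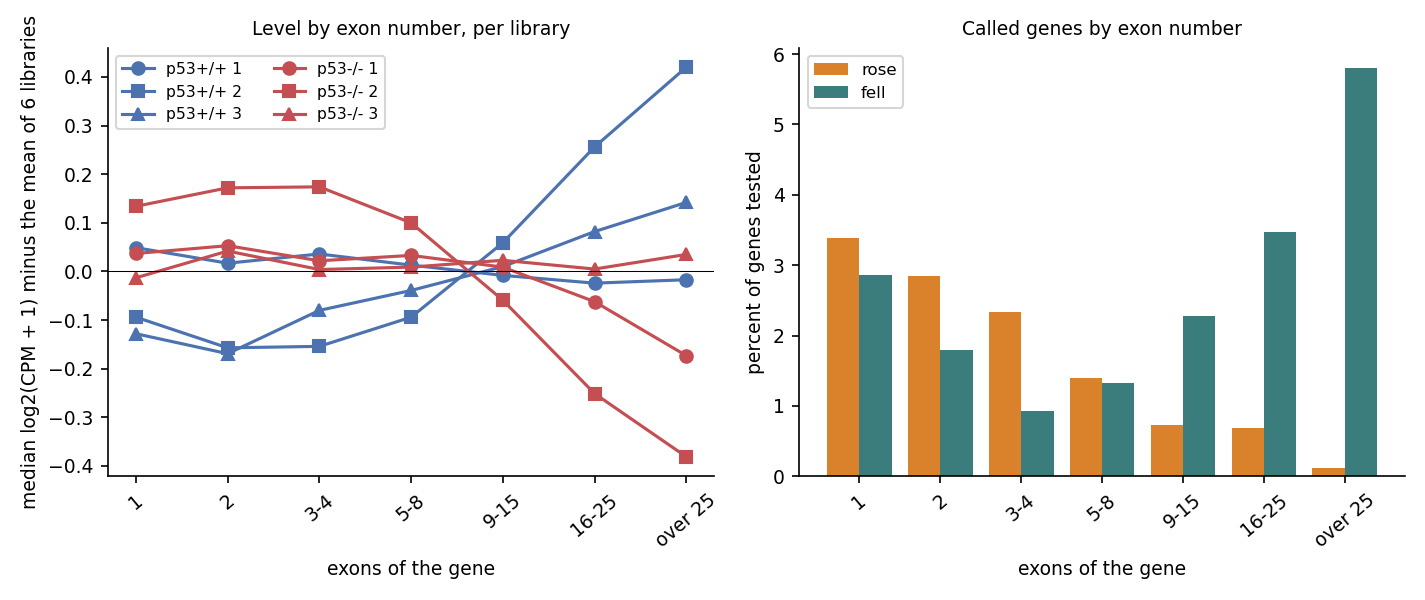
Left, median over genes of log2(CPM + 1) minus the 6-library mean (y axis) by exon number (x axis) for each p53+/+ (blue) and p53-/- (red) library. Right, percent of the genes tested (y axis) that rose (orange) or fell (teal) by exon number (x axis). The lines of p53+/+ replicate 2 and p53-/- replicate 2 run in opposite directions, and falls reach 5.80% of genes with over 25 exons.

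Among the lists of stem and progenitor cells, the markers of long-term HSCs held the most rises. Of 44 tested 6 rose (13.6% against the 1.25% of all genes that rose), with a median log2 fold change of 0.43, and in 20 all p53-/- libraries lay above all p53+/+ libraries, against 15.4% of all genes. The log2 fold change was below 0 in 12 members, and in 3 of these (Ctnnal1, Junb, and Thy1) all p53-/- libraries lay below all p53+/+ libraries, against 16.0% of all genes. Hlf, a transcription factor of HSCs, had CPM 205, 192 and 118 in p53+/+ and 351, 362 and 418 in p53-/- libraries (1.14 ± 0.22, adjusted p = 0.0242). Mycn (68.02, 74.8 and 86.3 to 129, 149 and 126 CPM, 0.82 ± 0.17, adjusted p = 0.0294) and Abcg2, the transporter behind the side population of stem cells (84.7, 62.7 and 73.3 to 134, 137 and 137 CPM, 0.88 ± 0.19, adjusted p = 0.0332), rose with little spread within a genotype. Txnip, an inhibitor of thioredoxin and glucose uptake, had CPM 614, 467 and 232 in p53+/+ and 920.4, 1568 and 918 in p53-/- libraries (1.37 ± 0.33, adjusted p = 0.0455), the cation channel gene Trpc6 21.97, 17.9 and 14.7 and 52.8, 33.02 and 81.95 CPM (1.62 ± 0.32, adjusted p = 0.0266), and the sulfotransferase gene Sult1a1 7.51, 2.19 and 3.85 and 17.95, 40.7 and 11.3 CPM (2.37 ± 0.52, adjusted p = 0.0340). In Hlf, Txnip, and Trpc6 the lowest p53+/+ library was replicate 3. The summed level of the 44 genes was 3330 to 4730 CPM in p53+/+ and 5260 to 6830 CPM in p53-/- libraries.

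Egr1, an immediate early gene that is also on the list, had the lowest log2 fold change (-1.78 ± 0.68, adjusted p = 0.147). Several further markers had higher values in all p53-/- libraries without passing the threshold. They were Meis1 (0.63 ± 0.16, adjusted p = 0.0552), Procr, which encodes EPCR (1.17 ± 0.32, adjusted p = 0.0619), and Esam (0.77 ± 0.23, adjusted p = 0.0756). Other markers did not separate the genotypes. Slamf1, which encodes CD150, had CPM 7.61, 6.28 and 5.86 in p53+/+ and 3.05, 1.897 and 6.29 in p53-/- libraries (-0.81 ± 0.41, adjusted p = 0.252), and Mecom (0.45), Vwf (-0.11), Tek (-0.08), and Hoxa9 (0.09) were not called. The 6 calls became 0 without p53+/+ replicate 2, p53+/+ replicate 3, or p53-/- replicate 1, 1 without p53-/- replicate 2 or p53-/- replicate 3, and 10 without p53+/+ replicate 1 (edgeR), and the list's median ranged from 0.30 to 0.65.

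Of 18 markers of multipotent progenitors 1 fell (5.56%, median -0.20). Dntt, which encodes terminal deoxynucleotidyl transferase of lymphoid-primed progenitors, had CPM 2063, 1062 and 1542 in p53+/+ and 785, 690.5 and 885 in p53-/- libraries (-0.98 ± 0.22, adjusted p = 0.0384). Flt3, the receptor of those cells, had CPM 920.1, 873 and 734 in p53+/+ and 631, 783 and 727 in p53-/- libraries and was not called (-0.24 ± 0.20, adjusted p = 0.513), and Satb1 (-0.64 ± 0.17, adjusted p = 0.0571) had lower values in all p53-/- libraries short of the threshold. The summed level of the list was 7700 to 9410 CPM in p53+/+ and 6720 to 6850 CPM in p53-/- libraries, without overlap. Dntt stayed past the threshold without p53+/+ replicate 2 and was lost without any other library. Cd34 had a log2 fold change of 0.17 (adjusted p = 0.521) and Cd48 -0.52 (adjusted p = 0.173).

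Of 52 hematopoietic transcription factors 3 rose and 1 fell (7.69% called against 3.50% of all genes, median 0.06). Nfe2, a factor of megakaryocytes and erythroid cells, rose from 471, 501 and 398 to 730.1, 901 and 714 CPM (0.78 ± 0.17, adjusted p = 0.0354), and Fli1 rose from 139.7, 157 and 133 to 227, 221 and 232 CPM (0.66 ± 0.14, adjusted p = 0.0343), with Mycn as the third. Irf8, which directs monocyte and dendritic cell fate, fell from 218, 249.9 and 235 to 108, 82.8 and 125 CPM (-1.15 ± 0.20, adjusted p = 0.0183). Irf8 was kept without p53+/+ replicate 1 or p53-/- replicate 3, and the 3 rises were lost without any single library. Of 34 cytokine and growth factor receptor genes 0 were called by edgeR, 7 had an unadjusted p-value below 0.05, and DESeq2 called 5. Over all genes tested, 2950 of 12625 had such an unadjusted p-value, and DESeq2 called 1552 of 12355.

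The lineage lists differed in direction, and several depended on p53+/+ replicate 2. The log2 fold change was below 0 in 30 of 33 granulocyte and monocyte genes, 17 of 22 mast cell, basophil, and eosinophil genes, 16 of 21 B lymphoid genes, and 15 of 22 T and NK cell genes. Without p53+/+ replicate 2 these numbers were 27, 6, 13, and 12. It was below 0 in 14 of 23 erythroid, 14 of 27 megakaryocyte and platelet, 14 of 31 dendritic cell, and 5 of 13 endothelial and stromal genes. Of the granulocyte and monocyte genes 3 fell (9.09%, median -1.11). F13a1, coagulation factor XIII of monocytes and platelets, had CPM 39.8, 61.4 and 47.7 in p53+/+ and 6.75, 6.05 and 10.02 in p53-/- libraries (-2.70 ± 0.42, adjusted p = 0.0124), and Ly86, a partner of the Toll-like receptor RP105, had CPM 31.7, 21.4 and 23.7 in p53+/+ and 5.39, 6.64 and 6.29 in p53-/- libraries (-2.07 ± 0.32, adjusted p = 0.0124), with Irf8 as the third. The summed level of the list was 10200 CPM in p53+/+ replicate 2, 3650 and 4980 CPM in the other p53+/+ libraries, and 2750 to 3070 CPM in p53-/- libraries. Granule genes carried the excess, such as Ngp with CPM 3.07, 1003 and 22.6 in p53+/+ and 1.63, 2.39 and 1.08 in p53-/- libraries. Without p53+/+ replicate 2 the list's median was -0.58 with 2 falls. Mpo, the myeloperoxidase gene of early progenitors, had CPM 1712, 3087 and 2611 in p53+/+ and 1456, 1169 and 1125 in p53-/- libraries (-0.98 ± 0.26, adjusted p = 0.0546), so that its p53-/- libraries lay below each p53+/+ library without a call. The list had 9 falls without p53+/+ replicate 1, 1 without p53+/+ replicate 3, 3 without p53-/- replicate 3, and 0 without p53-/- replicate 1 or 2 (edgeR).

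Of 22 mast cell, basophil, and eosinophil genes 0 were called by edgeR, 4 had an unadjusted p-value below 0.05, and DESeq2 called 2. The list's median was -1.16 with all libraries and 0.80 without p53+/+ replicate 2. Of 21 B lymphoid genes 3 fell (14.3% called against 3.50% of all genes, median -0.62), namely Dntt, the adaptor gene Blnk (29.2, 16.04 and 23.9 to 6.26, 6.05 and 10.6 CPM, -1.59 ± 0.29, adjusted p = 0.0202), and Ptprc, which encodes CD45 (269, 341 and 242 to 167, 116 and 164 CPM, -0.93 ± 0.20, adjusted p = 0.0348). CD45 also marks donor HSCs in the paper's transplants, so Ptprc is not specific to B cells. Dntt was also counted among the markers of multipotent progenitors. Of 22 T and NK cell genes 2 fell (9.09% called). Tcf7, which encodes TCF1, had CPM 9.02, 12.2 and 8.59 in p53+/+ and 1.41, 1.401 and 3.73 in p53-/- libraries (-2.18 ± 0.39, adjusted p = 0.0198), and the kinase gene Lck had 158, 106 and 109 and 78.9, 73.5 and 66.4 CPM (-0.77 ± 0.19, adjusted p = 0.0490). The summed levels of both lymphoid lists were lower in each p53-/- library than in any p53+/+ library, 1340 to 1600 against 1810 to 2940 CPM for B and 371 to 470 against 538 to 607 CPM for T and NK genes. For the B list this was the level of Dntt, and without it the sums were 652 to 879 CPM in p53+/+ and 559.5 to 778 CPM in p53-/- libraries, which overlapped. Blnk was kept in 3 of the 6 fits without a library, Tcf7 in 2, Ptprc and Dntt in 1, and Lck in 0.

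On the erythroid side Tfrc, the transferrin receptor gene, fell from 31.9, 44.7 and 40.8 to 11.6, 6.69 and 8.59 CPM (-2.13 ± 0.25, adjusted p = 0.00312), and Car2, carbonic anhydrase, rose from 923, 757 and 692 to 1268, 1572 and 1449 CPM (0.85 ± 0.17, adjusted p = 0.0289), the calls among 23 genes (8.7% against 3.50% of all genes, median -0.18). Tfrc passed in all 6 fits without a library, and Car2 rested on the 5 libraries other than p53+/+ replicate 1. Gata1 had CPM 14.7, 20.4 and 15.8 in p53+/+ and 7.997, 9.17 and 11.1 in p53-/- libraries (-0.84 ± 0.27, adjusted p = 0.0965). Of 27 megakaryocyte and platelet genes Nfe2 and Fli1 rose (7.41% called). Summed levels were higher in each p53-/- library than in any p53+/+ library for both lists, 1690 to 2110 against 1210 to 1460 CPM for erythroid and 2160 to 2540 against 1460 to 1810 CPM for megakaryocyte genes, although the medians of the fold changes were below 0. For the erythroid list this was the level of Car2, and without it the sums were 521 to 559 CPM in p53+/+ and 419.6 to 541 CPM in p53-/- libraries, which overlapped. The megakaryocyte sums without Nfe2, the member with the largest difference, were 1067 to 1312 and 1385 to 1827 CPM. Of 31 genes of dendritic cells and antigen presentation and 13 endothelial and stromal genes 0 were called by edgeR, with medians of 0.08 and 0.38, 5 and 3 genes at an unadjusted p-value below 0.05, and 2 and 1 calls by DESeq2.

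Immediate early genes, which respond within minutes to growth factors and stress, included some of the largest falls at high levels. Of 38 tested 5 fell and 1 rose (15.8% called, median -0.54). Fos had CPM 1267, 1043 and 259 in p53+/+ and 97.98, 91.7 and 76.7 in p53-/- libraries, with all p53-/- libraries below the lowest p53+/+ library, replicate 3 (-3.27 ± 0.66, adjusted p = 0.0274). Its partner Jun had CPM 863, 786 and 483 in p53+/+ and 200.1, 257 and 166 in p53-/- libraries (-1.77 ± 0.31, adjusted p = 0.0174), and Zfp36, which degrades AU-rich mRNAs, had CPM 864, 570.1 and 227 in p53+/+ and 118, 131 and 164 in p53-/- libraries (-2.004 ± 0.47, adjusted p = 0.0428). Ppp1r15a (-1.25 ± 0.30, adjusted p = 0.0431) and Gadd45g (-2.03 ± 0.50, adjusted p = 0.0483) also fell. The spread between p53+/+ libraries was wide. Dusp1 (886, 470.5 and 165 CPM in p53+/+, -2.15 ± 0.70, adjusted p = 0.0978), Nr4a1 (-2.05 ± 0.58, adjusted p = 0.0647), and Junb (-1.12 ± 0.35, adjusted p = 0.0844) missed the threshold. Dusp6, a feedback phosphatase of ERK, rose from 122, 67.9 and 61.6 to 168, 194 and 162 CPM (1.06 ± 0.24, adjusted p = 0.0386), and Myc had 392, 492 and 568 and 701, 607 and 617 CPM (0.41 ± 0.21, adjusted p = 0.2600). Falls numbered 0 without p53+/+ replicate 2 or any 1 of the 3 p53-/- libraries, and 2 without p53+/+ replicate 1 or 3.

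Of 40 cytosolic heat shock genes 3 fell (7.5%, median -0.03). Hspa1a, an inducible HSP70 gene, had CPM 2.37, 34.2 and 99.4 in p53+/+ and 0.707, 0.994 and 0.884 in p53-/- libraries (-5.70 ± 1.30, adjusted p = 0.0393). Its p53+/+ level differed widely between libraries, and replicate 1 lay close to the p53-/- libraries. Its near-identical copy Hspa1b, among which reads could be split, had CPM 1.97, 56.4 and 185 in p53+/+ and 1.63, 2.94 and 0.589 in p53-/- libraries and was not called (-5.54 ± 1.44, adjusted p = 0.0546). Hsp90aa1 (521, 564 and 864 to 331, 388 and 276 CPM, -0.97 ± 0.21, adjusted p = 0.0340) also fell, whereas Dnajb4 (0.98 ± 0.25, adjusted p = 0.0506) and Dnajb1 (0.62 ± 0.20, adjusted p = 0.0998) had higher values in all p53-/- libraries short of the threshold. Falls numbered 6 without p53+/+ replicate 1 and 0 without any other library (edgeR).

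The upstream sequences of Fos and Hspa1a are shown because these genes had the largest falls among the called members of their lists. The Fos window is chr12:85473790-85473889 (plus strand) with the CRE core TGACGT in capitals 66 to 61 bases before the start. The Hspa1a window is chr17:34972157-34972286 (minus strand) with a heat shock element (GAANNTTC) 104 to 97 bases and a CCAAT box 67 to 63 bases before the start.
Fos: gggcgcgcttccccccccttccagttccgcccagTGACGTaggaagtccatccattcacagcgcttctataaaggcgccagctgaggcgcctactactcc
Hspa1a: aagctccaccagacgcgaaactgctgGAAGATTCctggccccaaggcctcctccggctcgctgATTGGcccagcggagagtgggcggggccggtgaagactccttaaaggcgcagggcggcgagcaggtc

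The CRE core was in 23.1% of the windows of immediate early genes and 11.3% of those of all genes tested, and the heat shock element was in 33.3% of the windows of heat shock genes against 5.81%. The AP-1 motif TGACTCA was in 4.32% of windows of genes that rose, 2.08% of genes that fell, and 3.67% of all. The E2F core TTTCGCG was in 20.8% of windows of replication genes and 1.79% of all. A p53 decamer was in 25.9% of windows of arrest and feedback targets, 35.7% of apoptosis targets, and 4 of 20 windows of repair and metabolism targets, against 6.75% of all. A full site was in the windows of 5 genes tested. Of these Cdkn1a fell, and Dnajc7 (-0.80 ± 0.21, adjusted p = 0.0550), Itm2a (1.09 ± 0.35, adjusted p = 0.0945), Ifitm2 (0.30), and Sptbn4 (0.33) were not called.

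Nlrp1a, a sensor of the inflammasome, was the member of 22 inflammasome genes that fell (4.55% called, against 3.50% of all genes). It had CPM 0.504, 8.82 and 17.6 in p53+/+ and 0.381, 0.226 and 0.344 in p53-/- libraries, with p53+/+ replicate 1 near the p53-/- libraries (-4.81 ± 0.97, adjusted p = 0.0272). It has close paralogs in the same cluster, among which reads could be split. Il18 had 26.9, 20.97 and 20.7 and 34.3, 47.1 and 34.2 CPM (0.75 ± 0.22, adjusted p = 0.0756). Among 29 NF-kB genes (13.8% called) the inhibitor gene Nfkbid (-1.87 ± 0.36, adjusted p = 0.0240), the kinase gene Ikbkb (-1.15 ± 0.24, adjusted p = 0.0294), and the chemokine gene Ccl3 (129, 74.2 and 42.8 to 21.98, 37.1 and 23.3 CPM, -1.58 ± 0.35, adjusted p = 0.0345) fell, and Tnip3 rose (1.17 ± 0.26, adjusted p = 0.0364). Of 58 interferon-stimulated genes 5.17% were called, near the 3.50% of all genes. They were Gbp7 (-1.44 ± 0.27, adjusted p = 0.0214) and the kinase PKR gene Eif2ak2 (-1.27 ± 0.25, adjusted p = 0.0272), which fell, and Igtp, which rose (97.9, 82.3 and 62.1 to 165, 162 and 142 CPM, 0.95 ± 0.21, adjusted p = 0.0357), with a median of 0.11. These calls rested on the 5 libraries other than p53+/+ replicate 1, except that Ccl3 was kept only without p53+/+ replicate 3.

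Atf4, the transcription factor of the integrated stress response, fell with little spread. It had CPM 117, 115 and 144 in p53+/+ and 43.4, 48.4 and 41.2 in p53-/- libraries (-1.50 ± 0.16, adjusted p = 0.00203), and its log2 fold change went from -1.39 to -1.57 over the fits without a library. Of 42 genes of the ATF4 and unfolded protein response 3 fell and 1 rose (9.52% called against 3.50% of all genes, median 0.09). Mthfd2, a mitochondrial folate enzyme and ATF4 target, fell (-1.16 ± 0.29, adjusted p = 0.0497), and Dnajb9, a chaperone of the endoplasmic reticulum, rose from 41.3, 25.1 and 24.2 to 72.4, 82.5 and 87.4 CPM (1.42 ± 0.26, adjusted p = 0.0214). Of 20 aminoacyl-tRNA synthetase genes Eprs fell (176, 290.0 and 334 to 88.02, 93.8 and 112 CPM, -1.45 ± 0.30, adjusted p = 0.0293), with 5.0% called and a median of -0.30. Of 44 antioxidant genes Txnip and Sesn1 rose (4.55% called, median 0.21), and Nqo1 had 11.6, 5.48 and 6.41 and 15.7, 20.1 and 19.98 CPM (1.24 ± 0.34, adjusted p = 0.0619). Of 16 BCL2 family genes 1 fell (6.25% called). Bcl2, the antiapoptotic founder of the family, had CPM 187, 174 and 188 in p53+/+ and 63.2, 77.03 and 94.5 in p53-/- libraries (-1.23 ± 0.23, adjusted p = 0.0214). It was kept without p53+/+ replicate 1 or p53-/- replicate 3, and Mthfd2, Dnajb9, Eprs, Txnip, and Sesn1 rested on the 5 libraries other than p53+/+ replicate 1.

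**Figure D5:**
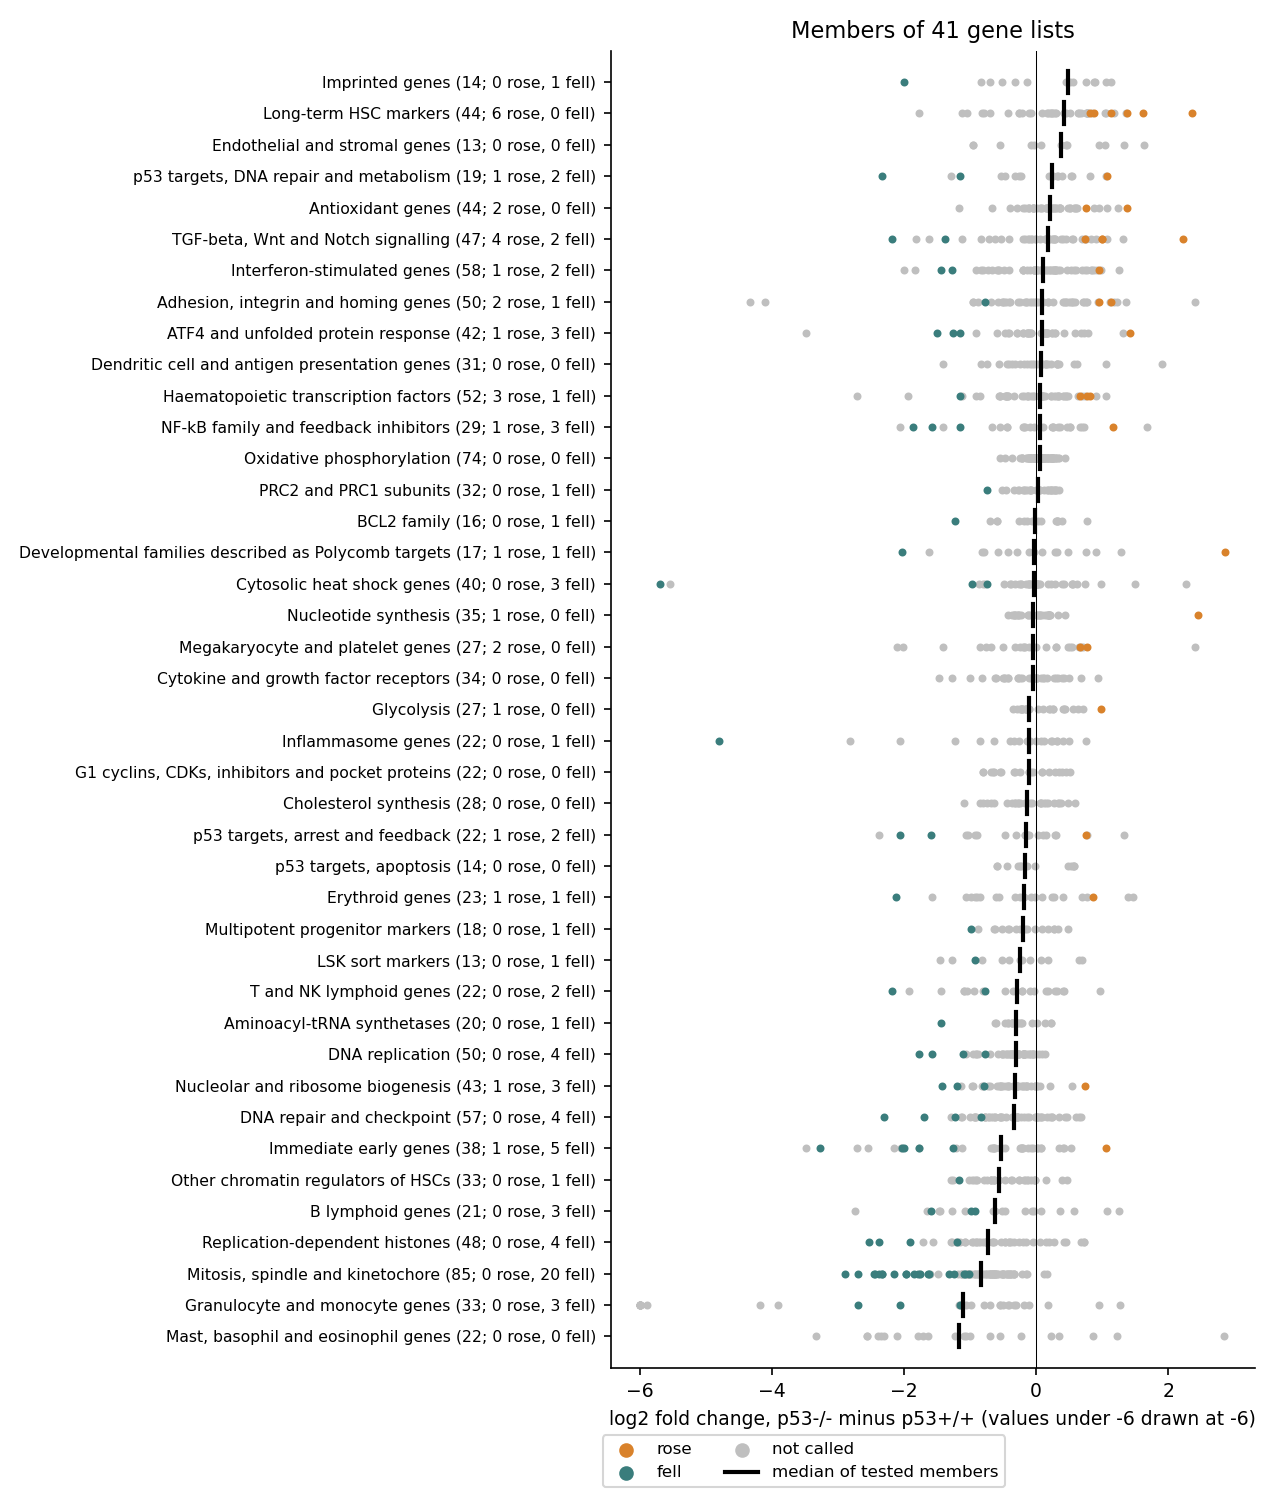
Log2 fold change of p53-/- against p53+/+ LSKs (x axis) of every tested member of 41 gene lists (y axis, with the number tested and called), with genes that rose in orange, genes that fell in teal, others in grey, values under -6 drawn at -6, and a black bar at each list's median. Mitosis genes hold the most calls, 20 of 85 with a median of -0.83, and the medians of the granulocyte (-1.11) and mast cell (-1.16) lists were -0.58 and 0.80 without p53+/+ replicate 2.

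Among lists of growth and metabolism 0% to 9.30% of the members were called, against 3.50% of all genes. Of 74 genes of oxidative phosphorylation 0 passed by edgeR, 1 had an unadjusted p-value below 0.05, DESeq2 called 1, and the log2 fold changes spanned -0.55 to 0.44. Of 27 glycolysis genes the glucose transporter gene Slc2a3 rose (119, 97.9 and 73.4 to 204, 202 and 166 CPM, 0.98 ± 0.20, adjusted p = 0.0274). Of 35 nucleotide synthesis genes the salvage enzyme gene Upp1, uridine phosphorylase, rose from 9.77, 4.38 and 4.63 to 33.3, 47.3 and 21.998 CPM (2.45 ± 0.40, adjusted p = 0.0145). Of 28 cholesterol synthesis genes 0 were called by edgeR, 7 had an unadjusted p-value below 0.05, and DESeq2 called 1. Of 43 nucleolar genes 3 fell and 1 rose (median -0.32), namely Ncl (612, 842 and 1237 to 346, 391 and 438 CPM, -1.20 ± 0.27, adjusted p = 0.0393), the dyskerin gene Dkc1 (-1.42 ± 0.25, adjusted p = 0.0183), and Nop58 (-0.79 ± 0.16, adjusted p = 0.0272) against the polymerase I factor Rrn3 (0.74 ± 0.18, adjusted p = 0.0483). Upp1 and Dkc1 were kept without p53+/+ replicate 1 or p53-/- replicate 3, Slc2a3, Ncl, and Nop58 rested on the 5 libraries other than p53+/+ replicate 1, and Rrn3 was lost without any single library.

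Of 14 imprinted genes the noncoding Kcnq1ot1 fell (-1.998 ± 0.39, adjusted p = 0.0248), with 7.14% called and a median of 0.48 over the list. Among chromatin genes, 1 of 32 Polycomb subunit genes was called (3.12%, against 3.50% of all genes). Ezh2, the methyltransferase of PRC2, had CPM 98.5, 111 and 134 in p53+/+ and 76.4, 67.99 and 60.4 in p53-/- libraries (-0.74 ± 0.17, adjusted p = 0.0377), while Suz12 (-0.46 ± 0.17, adjusted p = 0.145) and Bmi1 (0.34 ± 0.18, adjusted p = 0.288) were not called (median of the list 0.03). Of 33 other chromatin regulators of HSCs 30 had a fold change below 0 (median -0.56), and 1 passed (3.03%), the cohesin subunit gene Smc3 (-1.16 ± 0.28, adjusted p = 0.0450). Without the trend on exon number and GC content that list's median was -0.37, and the log2 fold change of Ezh2 was -0.57, no longer called (adjusted p = 0.0649 by edgeR). H2afy, which encodes the histone variant macroH2A1, fell from 3242, 3373 and 3864 to 1884, 1922 and 1963 CPM (-0.86 ± 0.15, adjusted p = 0.0157) and was among the 10 genes of the highest level per length that fell. Kcnq1ot1, Ezh2, Smc3, and H2afy rested on the 5 libraries other than p53+/+ replicate 1.

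The largest rises were at low to moderate levels. Slc16a12, a transporter of monocarboxylates and creatine, had CPM 6.75, 5.28 and 4.96 in p53+/+ and 42.9, 20.7 and 80.4 in p53-/- libraries (3.08 ± 0.50, adjusted p = 0.0145). Foxa3, a forkhead factor known from liver and 1 of 17 developmental genes tested that are described as Polycomb targets, had CPM 1.76, 2.24 and 0.837 in p53+/+ and 12.1, 15.1 and 8.397 in p53-/- libraries (2.87 ± 0.43, adjusted p = 0.0118). Trib2, a pseudokinase that promotes degradation of C/EBPalpha and is known as an oncogene in acute myeloid leukemia, had CPM 10.03, 7.97 and 7.25 in p53+/+ and 36.9, 37.4 and 44.4 in p53-/- libraries (2.23 ± 0.27, adjusted p = 0.00312), with the p53R248W/+ libraries at 7.12, 10.4 and 5.49 CPM. Lgr4, a receptor of R-spondins, rose from 1.11, 1.94 and 1.45 to 9.09, 5.602 and 5.401 CPM (2.15 ± 0.40, adjusted p = 0.0215), and Trim58, an erythroid ubiquitin ligase, from 5.59, 8.67 and 6.52 to 26.1, 21.5 and 23.96 CPM (1.78 ± 0.28, adjusted p = 0.0129). Among the genes of the highest level that rose were Cd81 (0.65 ± 0.16, adjusted p = 0.0497), Shisa5 (0.88 ± 0.21, adjusted p = 0.0440), Ninj1 (0.86 ± 0.21, adjusted p = 0.0442), Rab32 (0.99 ± 0.22, adjusted p = 0.0335), and the lymphotoxin gene Ltb (1.38 ± 0.32, adjusted p = 0.0400), and these 5 rested on the libraries other than p53+/+ replicate 1. Of the fits without a library, Foxa3 and Trim58 passed in 5, Slc16a12 in 4, and Lgr4 in 2.

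Signaling and adhesion genes were called in both directions. Of 47 genes of TGF-beta, Wnt, and Notch signaling 4 rose and 2 fell (12.8% called against 3.50% of all genes, median 0.19). The rises were Trib2, the receptor gene Tgfbr1 (45.5, 45.9 and 38.6 to 103, 56.7 and 101 CPM, 1.003 ± 0.23, adjusted p = 0.0394), the BMP effector gene Smad5 (0.73 ± 0.17, adjusted p = 0.0382), and the Wnt receptor gene Fzd7 (1.01 ± 0.24, adjusted p = 0.0428), and the falls were Tcf7 and the Notch regulator gene Dtx4 (-1.38 ± 0.25, adjusted p = 0.0206). Trib2, described above by its action on C/EBPalpha, was counted as a member of this list. Of 50 adhesion and homing genes (6.0% called) the sphingosine-1-phosphate receptor gene S1pr1 (29.9, 22.8 and 16.5 to 62.7, 43.01 and 46.4 CPM, 1.13 ± 0.27, adjusted p = 0.0434) and Tgm2 (0.95 ± 0.20, adjusted p = 0.0328) rose and the integrin gene Itga4 fell (71.4, 79.2 and 77.6 to 37.9, 45.7 and 50.3 CPM, -0.77 ± 0.17, adjusted p = 0.0351). Cxcr4, the receptor that holds HSCs in the niche, had CPM 35.8, 33.4 and 32.1 in p53+/+ and 65.4, 89.3 and 39.04 in p53-/- libraries and missed the threshold (0.94 ± 0.25, adjusted p = 0.0607). Trib2 passed in all 6 fits without a library, Tcf7 and Dtx4 in 2, Tgfbr1, Fzd7, S1pr1, Tgm2, and Itga4 in 1, and Smad5 in 0.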

How the data were processed

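RNA of sorted LSKs was sequenced by the authors, aligned with STAR (2.5.2b) to mm10, and counted per gene with featureCounts of Subread (1.5.0), per the submitters' processing notes. The labels name a SMART-Seq low-input kit and the methods oligo(dT) selection. The deposited table holds raw read counts of 12647 genes in 9 LSK libraries. It also holds columns of the authors' own comparisons (log2 fold changes, p-values, and FDR), which were not used, and H3K27me3 ChIP-seq was not analysed here.

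Counts were filtered with filterByExpr, scaled by TMM, and tested with edgeR (4.0.16, R 4.3.3) by the quasi-likelihood test over all 9 libraries, with p53-/- minus p53+/+ as the contrast and Benjamini-Hochberg adjustment over 12625 genes at 0.05. The common biological coefficient of variation was 0.281. The standard error of a log2 fold change is its size divided by the square root of F. CPM ± SD is over 3 libraries. Scripts were tested on simulated data. Between 18021375 and 29750702 reads per library stood behind the values of the 9 libraries, and no gene tested had fewer than 37 reads over all 9.

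Alternatives were DESeq2 (1.42.0), limma-voom (3.58.1), other size factors and filters, 6 libraries only, a replicate block, a Y-linked covariate, other thresholds, and leaving out each library. A fit with the loess trend on exon number and GC content removed was chosen after seeing the data, as was the set of 26 genes. The members and gene lists were chosen with earlier results of these data known. Named genes were the 20 largest changes per direction among separated genes with an average log2 CPM of 1 or more, the 10 of highest level per direction, list members past the threshold (at most 6, otherwise up to 3 by p-value), Trp53, sex-linked genes, sort markers, and the HSC targets of p53. Other genes were named after their values were seen. Some genes that the rule names are not reported here. Promoter sequences and positions came from RefSeq on GRCm38.p6, the build of mm10, and exon numbers from GENCODE.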

Additional observations from a re-analysis of the deposited data

How the results depend on the processing

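Against 442 calls (158 higher, 284 lower), DESeq2 gave 1552 (713 and 839), the fit of the 6 libraries alone 894 (341 and 553), and removal of the trend on exon number and GC content 798 (348 and 450). Limma-voom called 297, of which 184 were lower. At an adjusted p-value of 0.01 there were 26 calls (1 and 25), and 72 rises reached 2-fold. Other size factors, other filters, and the Y-linked covariate gave 441 to 574. DESeq2 also moved the share of higher calls from 35.7% to 45.9%. Without a library the total ranged from 37 to 499, higher calls from 3 to 170, and lower calls from 27 to 329. The cause of these shifts was not tested. The 442 genes kept their direction in every one of these fits in which they were tested. Trp53 passed in DESeq2 (-0.94, adjusted p = 0.0259) and went from -1.25 to -0.44 without a library.

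Same-numbered p53-/- and p53+/+ libraries did not deviate together (r across genes of -0.004, -0.166, and -0.03), so the numbers gave no pairing between these genotypes. Whether the p53R248W/+ libraries, which also enter the replicate block, deviate together with same-numbered p53+/+ libraries was not tested. Hspa1a had CPM 2.37, 34.2 and 99.4 in p53+/+ and 4.60, 17.6 and 82.1 in p53R248W/+ libraries, whereas Eif2s3y in replicate 3 had 0.0558 and 52.4. Column names share a form in those genotypes and have another form in p53-/- libraries. A difference in preparation of the p53-/- libraries would coincide with genotype and was not tested. With the replicate block 882 genes were called (308 higher, 574 lower), 438 of them among the 442.

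The 116 called genes among 178 named kept their direction throughout, and at the same threshold 82 kept the call under each other test, size factor, filter, sample set, block, and covariate that tested them, 112 with the exon and GC trend removed, and 14 without each library. Named genes that turned direction were not called. With the Y-linked covariate these were Uty (0.64), Itgam (0.38), Cd4 (0.14), and Cd8a (0.18), and with the trend removed Flt3 (0.025). When single libraries were left out, Uty went from -8.24 to 2.71, Itgam from -1.11 to 0.49, Cd4 from -0.52 to 0.19, Cd8a from -1.35 to 1.504, Xist from -0.73 to 0.00196, and Kit from -0.087 to 0.30. With 3 libraries per genotype and a spread of this size, small changes were often not detectable.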
